A study of Mus musculus with 24 samples.

Results

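Contacts between gene promoters and other parts of the genome were mapped by promoter capture Hi-C in mouse cranial neural crest cells, and the interactions described here are the pairs of HindIII restriction fragments called in all of the 24 libraries. A pair was taken as unordered, and its presence in all the deposited call lists, each of which holds pairs with a contact score of at least 5, chose it. Of 1242966 distinct pairs called in any library, 15134 (1.22%) were called in all 24, and they are termed shared interactions below. The members were thus chosen by the presence of a call, which rests on the score, in these same libraries, and both are given as description without a test.

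The 12 groups hold 2 libraries each, and their labels give stage, tissue and genotype. They are wild-type E8.5 neural crest progenitors, E11.5 wild-type and Ezh2cKO cells of the FNP, Mx, Md and PA2, E11.5 Hoxa2PTE-36kb-del cells of the Md and PA2, and E11.5 Hoxa2PTE-42kb-del cells of the PA2. The titles name the libraries as biological replicates except for the 42kb deletion, where p-values may measure a technical spread. For 1 PA2 library of the 36kb deletion the genotype field repeats another library's title, and its own title was followed. Cell sorting is described for Wnt1::Cre;ROSARFP and Ezh2cKO embryos and not for deletion embryos, and the labels do not spell out the tissue abbreviations or PTE, the Cre that removes Ezh2, the position of the deletions or the pooling of embryos. Each library carries its own batch label, so that batch was not tested. Contact calls measure no expression, and neither the labelled cell type nor the loss of Ezh2 could be checked against marker genes. In these bulk libraries a change in the share of cells with a contact and a change in contact frequency per cell cannot be told apart.

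Promoter capture Hi-C ligates fragments that lie close together in the nucleus and enriches those that carry a promoter, the baits, so that each call joins a promoter to another fragment. Such contacts can connect a gene to distal enhancers, to other promoters or to regions held together by architectural proteins or Polycomb complexes. Ezh2 is the catalytic subunit of Polycomb repressive complex 2, which methylates histone H3 at developmental genes such as the Hox clusters. Replication-dependent histone genes lie in clusters that gather at histone locus bodies in the nucleus.

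The promoters below belong to the genes that the shared interactions turn on: the histone genes of chromosome 13, the most connected bait, and 3 developmental genes whose distal contacts are followed across conditions. Each run holds 250 bases before and 50 after the start site, read 5′ to 3′ on the gene's strand from RefSeq on GRCm38.p6, with motif matches in capitals. The motifs, searched on both strands, were the CTCF core motif, the TATA box TATAAA, the CCAAT box CCAAT, the GC box GGGCGG and the NRF1 site. Matches of different motifs were counted apart even where they overlap.
H2ac13: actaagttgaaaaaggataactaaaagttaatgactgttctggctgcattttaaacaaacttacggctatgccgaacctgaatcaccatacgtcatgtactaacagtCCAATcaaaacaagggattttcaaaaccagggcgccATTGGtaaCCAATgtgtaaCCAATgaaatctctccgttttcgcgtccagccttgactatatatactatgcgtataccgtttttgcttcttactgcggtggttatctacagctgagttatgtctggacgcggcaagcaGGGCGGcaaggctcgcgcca
H2ac10: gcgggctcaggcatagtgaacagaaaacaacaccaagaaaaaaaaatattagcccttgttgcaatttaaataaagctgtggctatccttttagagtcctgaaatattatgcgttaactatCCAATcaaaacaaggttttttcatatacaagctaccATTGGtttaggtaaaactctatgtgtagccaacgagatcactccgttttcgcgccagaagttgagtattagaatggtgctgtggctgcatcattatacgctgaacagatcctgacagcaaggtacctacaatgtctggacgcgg
H3c8: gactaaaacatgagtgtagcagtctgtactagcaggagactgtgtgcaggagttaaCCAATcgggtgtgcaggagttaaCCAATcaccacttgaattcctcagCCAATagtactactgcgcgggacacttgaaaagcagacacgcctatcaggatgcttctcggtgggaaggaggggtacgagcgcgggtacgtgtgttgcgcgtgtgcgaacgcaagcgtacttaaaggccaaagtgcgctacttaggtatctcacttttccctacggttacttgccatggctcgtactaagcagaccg
Cpsf3: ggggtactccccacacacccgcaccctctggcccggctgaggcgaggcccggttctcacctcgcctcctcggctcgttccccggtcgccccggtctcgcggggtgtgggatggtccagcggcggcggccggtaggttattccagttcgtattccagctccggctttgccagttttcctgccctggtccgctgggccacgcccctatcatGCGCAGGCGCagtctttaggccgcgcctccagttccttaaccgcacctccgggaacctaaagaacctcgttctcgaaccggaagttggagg
Hoxb8: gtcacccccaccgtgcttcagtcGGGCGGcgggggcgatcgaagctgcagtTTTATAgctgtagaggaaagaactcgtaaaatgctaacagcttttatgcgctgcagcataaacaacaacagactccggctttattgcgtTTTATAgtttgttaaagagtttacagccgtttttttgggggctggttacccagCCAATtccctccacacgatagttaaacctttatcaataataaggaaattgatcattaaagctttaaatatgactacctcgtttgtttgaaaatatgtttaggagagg
En1: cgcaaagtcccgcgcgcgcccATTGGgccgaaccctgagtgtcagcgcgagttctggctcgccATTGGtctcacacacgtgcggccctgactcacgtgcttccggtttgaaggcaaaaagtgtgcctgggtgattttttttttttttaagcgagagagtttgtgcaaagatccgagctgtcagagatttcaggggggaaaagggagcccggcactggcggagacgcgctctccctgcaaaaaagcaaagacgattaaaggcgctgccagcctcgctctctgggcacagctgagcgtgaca
Isl1: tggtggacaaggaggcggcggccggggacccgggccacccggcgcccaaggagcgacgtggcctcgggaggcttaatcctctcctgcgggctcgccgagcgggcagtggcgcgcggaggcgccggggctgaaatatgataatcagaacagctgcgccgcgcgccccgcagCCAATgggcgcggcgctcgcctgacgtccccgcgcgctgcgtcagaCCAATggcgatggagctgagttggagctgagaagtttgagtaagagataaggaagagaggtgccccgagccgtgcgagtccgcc
The H2ac13 window (chr13:21716162-21716461, plus strand) held 4 CCAAT boxes and 1 GC box. H2ac10 (chr13:23533625-23533924, plus strand) held 2 CCAAT boxes and H3c8 (chr13:23535168-23535467, plus strand) held 3. Cpsf3 (chr12:21286047-21286346, plus strand) held 1 NRF1 site and none of the other motifs. Hoxb8 (chr11:96281655-96281954, plus strand) held 2 TATA boxes, 1 CCAAT box and 1 GC box, while En1 (chr1:120602237-120602536, plus strand) and Isl1 (chr13:116309639-116309938, minus strand) held 2 CCAAT boxes each.

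Among the promoters of the table, the histone genes at baits with a shared interaction stood apart in their letters. Of 46 such histone promoters, 87.0% held a CCAAT box and 56.5% a TATA box, beside 38.2% and 12.6% of all 21263 protein-coding promoters in the table. Over all 92 histone promoters of the table the shares were 68.5% and 40.2%. Protein-coding promoters at baits with at least 1 shared interaction (n = 4175) had a median GC content of 59.3% and a GC box in 57.7%, beside 58.3% and 51.7% at baits with none (n = 11905). The CTCF core was found in 2.66% of the former and 3.05% of the latter, and the NRF1 site in 8.05% and 7.74%, beside 2.65% and 6.38% of all protein-coding promoters. A match is a description of the letters and not of a bound site.

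Shared interactions were short compared with the rest of the calls, and nearly all lay within a chromosome. There were 15029 cis and 105 trans interactions (0.694% trans, exact binomial 95% interval 0.568 to 0.839), beside 7.18% trans over all pairs. Of the trans ones 23 came from a single bait, and the interval takes interactions that share baits as independent. The median cis distance between fragment centres was 243 kb (95% interval of the median 239 to 247 kb, over interactions that share baits), with 5% below 21.5 kb, 5% above 1019 kb and a maximum of 5916 kb. Pairs called in only 1 library had a median of 2747 kb, those in 12 libraries 366 kb and those in 23 libraries 265 kb. Only 5.18% of the shared cis interactions spanned over 1 Mb, beside 54.5% of all cis pairs.

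**Figure D1:**
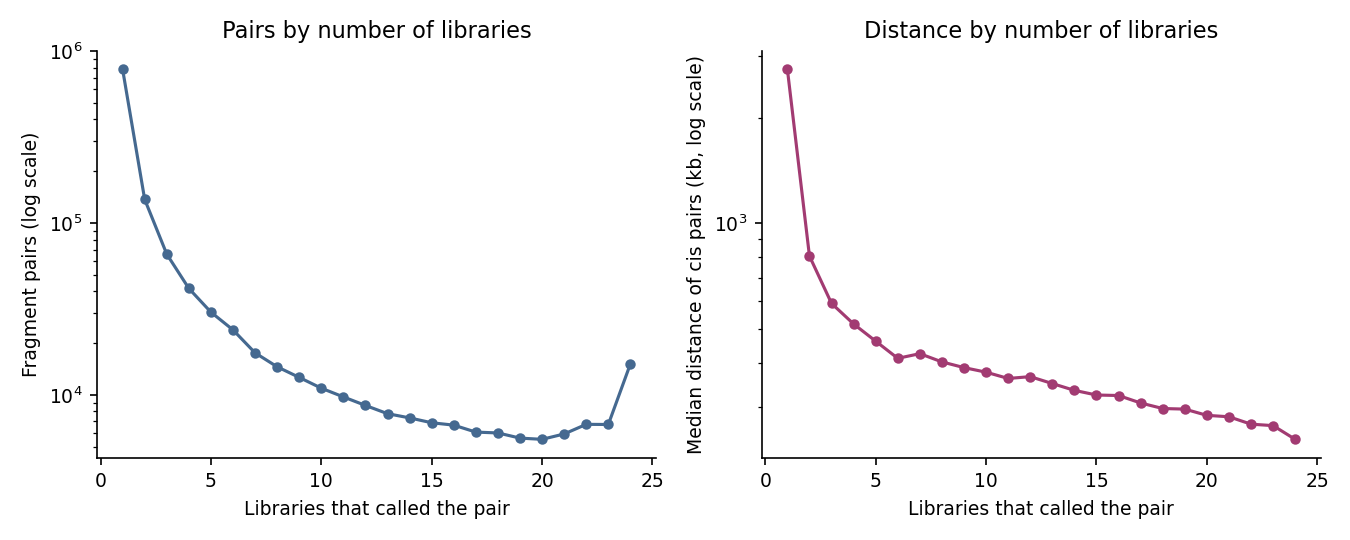
Number of distinct fragment pairs (log axis) and their median cis distance in kb (log axis) against the number of libraries in which a pair was called, from 1 to 24. The 783784 pairs called in 1 library are followed by ever smaller classes down to 5510 in 20 libraries, with 15134 in all 24, and the median distance is 2747 kb at 1 library and 243 kb at 24.

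The share of pairs that were called in every library was lower at longer distances. Of the cis pairs under 25 kb, 7.24% were shared, and of those from 200 to 400 kb, 3.01%. From 800 to 1600 kb it was 0.674% and from 3200 to 6400 kb 0.0233%. None of the 298089 cis pairs of 6400 kb or more was shared. No interval is given, because neighbouring fragments are not independent.

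**Figure D2:**
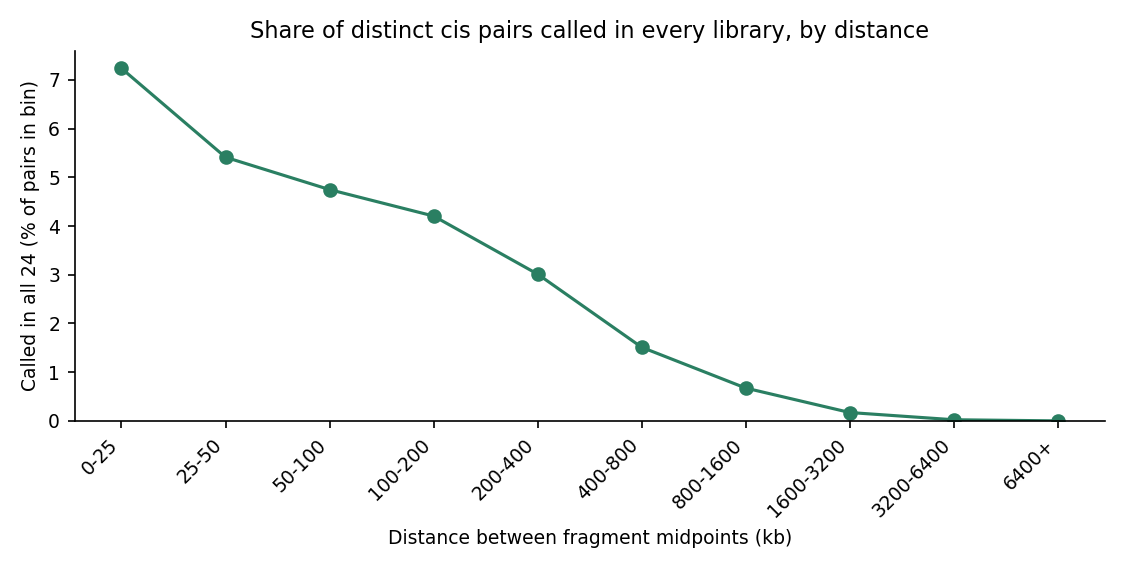
Percent of the distinct cis pairs of each distance class (kb) that were called in all 24 libraries. The share is 7.24% under 25 kb, 3.01% from 200 to 400 kb and 0.0233% from 3200 to 6400 kb.

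Among the shared interactions, 2611 joined 2 baits, that is 17.3% (exact binomial 95% interval 16.7 to 17.9), beside 16.8% of pairs in 23 libraries, 9.62% of pairs in 1 library and 11.47% of all pairs. This interval too takes interactions that share baits as independent. All of these promoter-promoter interactions lay in cis, at a median of 164 kb, while promoter interactions with other fragments had a median of 257 kb. Of the shared cis interactions, 37.5% ended in the body of a gene other than those at the bait and 39.2% outside any protein-coding gene. The body of the bait's own gene held 3.63%, beside 1.05% of all cis pairs. Where a bait had 1 orientation, 3400 of 6264 ends (54.3%) lay downstream of the start, beside 50.2% of all cis pairs.

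The score threshold lies close to many members. The median of a shared interaction's lowest score over the 24 libraries was 6.54, and 5648 (37.3%) had a lowest score under 6. The median of its median score was 11.33, beside 8.85 for the 6722 pairs that missed 1 library, whose median lowest score in the other 23 was 5.44. The E8.5 progenitor libraries were missing most often, with 1048 pairs called everywhere but in replicate 1 and 793 everywhere but in replicate 2, beside a median of 155.5 over all libraries. A further 1649 pairs, at a median of 318 kb, were absent only from both E8.5 libraries, and 280, at a median of 535 kb, only from the 8 Ezh2cKO libraries. Absent only from the 6 deletion libraries were 454 pairs, 180 of them trans and the cis ones at a median of 14.0 kb, and 196 were absent only from both 42kb libraries. The libraries held 142284 to 190343 calls each, of which the shared interactions were 7.95% to 10.6%.

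The shared interactions fell on 5116 of 22203 baits (23.04%), of which 2249 had 1 and 357 had at least 10. The 100 most connected baits took 15.3% of all bait ends. The bait of Cpsf3, the endonuclease of pre-mRNA cleavage, and Itgb1bp1, an integrin-binding protein, had the most, with 103 (chr12:21285222-21291864). Of its partners 101 fragments lay within chr12:21075291-21489706, around Adam17, Iah1 and Ywhaq, at 6.92 to 212 kb. The bait of Iah1, an esterase, in the same stretch had 59, at a median of 89.0 kb. Adam17 is a membrane sheddase and Ywhaq a 14-3-3 protein, and with these baits they formed 1 connected group of 217 shared interactions over 448 kb.

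Away from these, the bait of Pknox2, a TALE-class homeobox factor, had 37 shared interactions (chr9:37145691-37158394). Of these, 34 ended in a single run of fragments at chr9:36891273-37011916, inside the gene's own body, at 141 to 260 kb. The Hoxc5 bait had 39 (chr15:103013353-103016608), of which 4 led to other baits. Unnamed baits also ranked among the most connected, with 70 interactions at chr4:41211014, 53 at chr12:21342176 and 51 at chr9:37159032. Joined through common fragments, the shared interactions fell into 2196 groups, of which 163 with at least 20 interactions held 46.7% of them.

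The largest connected group was the histone region of chromosome 13, with 499 shared interactions among 153 fragments and 38 baits (chr13:21166175-23766053). In it, promoters of core and linker histones contacted each other both within a cluster and between clusters more than 1 Mb apart. Of 47 baits with a histone gene, 32 had shared interactions, and 416 shared interactions had a histone bait at an end, 398 of them on chromosome 13. Promoters of 2 histone baits were joined by 115, of which 114 lay on chromosome 13. Of these, 50 crossed the 1487 kb gap between 8 baits at 21.7 to 22.0 Mb and 18 baits at 23.5 to 23.8 Mb, spanning 1487 to 2046 kb with a median of 1813 kb. Over all genes, 778 shared interactions spanned over 1 Mb, and 170 of these (21.9%) had a histone bait.

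The bait of H2ac10, H3c8 and H4c8, which encode histones H2A, H3 and H4 (chr13:23517430-23540001, 22572 bases long), had 66 shared interactions at a median of 1500 kb. The bait of H2ac13 and H2bc13, an H2A and an H2B gene (chr13:21715488-21717615), had 44, of which 22 led to other baits, at a median of 1829 kb. The pair of these 2 baits was itself shared at 1812 kb, with a median score of 35.3. From H2ac13, 14 partner fragments lay at chr13:23517430-23586244 with a median score of 32.4 and 9 at chr13:23736849-23766053 with 25.1. In each library the median score of the 50 interactions across the gap lay between 20.7 and 34.0, above the library's median over all shared interactions, which was 9.97 to 12.5. Histone genes are near-identical copies in part, and reads that map to several copies may be split between them, so that the exact fragment of each contact is uncertain.

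Over the 17942 protein-coding genes with a start site at a bait, 4713 (26.3%) had a shared interaction, and gene classes differed widely around that value. Hox genes reached 70.3% (26 of 37 baited genes), clustered protocadherins, which are neuronal adhesion proteins, 69.2% (18 of 26), histone genes 62.5% (50 of 80), skeletal and connective tissue genes 59.1% (13 of 22) and other patterning genes 55.1% (43 of 78). Genes of the facial neural crest reached 45.2% (14 of 31) and early neural crest genes 30.0% (6 of 20). Ribosomal protein genes stood at 36.7% (29 of 79), housekeeping genes at 33.3% (14 of 42) and Polycomb subunits at 32.1% (9 of 28). Olfactory receptors had 13.1% (112 of 853), vomeronasal receptors 9.01% (10 of 111) and cadherin and synaptic adhesion genes 6.45% (2 of 31). Of small marker lists of other cell types, 1 of 7 epithelial, 1 of 6 endothelial, 4 of 6 muscle, 1 of 4 neuronal and 1 of 5 blood genes with a bait had a shared interaction.

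Of shared promoter-promoter interactions with a histone gene, 115 of 136 had one at both ends, and for olfactory receptors the count was 55 of 84, for keratins 17 of 22, for Hox genes 8 of 14 and for protocadherins 7 of 9. For zinc finger (Zfp) genes it was 10 of 68, for vomeronasal receptors 2 of 4 and for ribosomal protein genes 0 of 30. Baits with a shared interaction also had more calls, with a median of 69 distinct called pairs, the shared ones included, beside 39 for baits with none. Their median number of other cis calls per library was 11.9, beside 3.25. They had a median of 17 other baits within 500 kb, beside 13, and were longer (median 6.23 against 5.65 kb). The part of these differences in the shares of the gene classes was not tested.

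**Figure D3:**
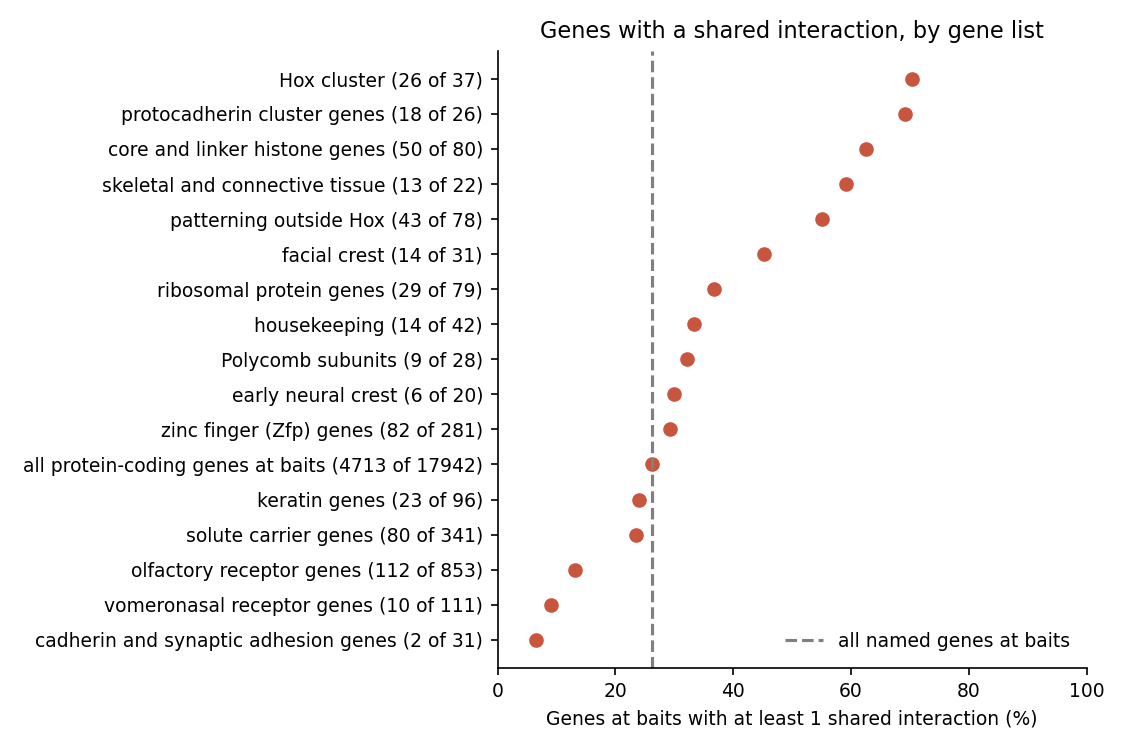
Percent of the genes with a start site at a bait that had at least 1 shared interaction, for each gene list with at least 20 such genes; the dashed line is the 26.3% of all protein-coding genes at baits. Hox (70.3%) and protocadherin genes (69.2%) lie highest and cadherin and synaptic adhesion genes (6.45%) lowest.

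Of 31 facial crest genes at baits, 14 had shared interactions, and the median distances of the 6 with at least 5 ran from 128 to 1239 kb. Dlx5, a homeobox gene of the lower jaw, had 20 shared interactions, of which 13 lay at chr6:5991689-6030691 and 6 at chr6:5851622-5874355, both within Dync1i1 at 853 to 1029 kb. Sox9, the master regulator of cartilage, had 4, all at chr11:111645578-111658372 and 1129 to 1139 kb away, with a score that ran from 5.32 to 33.6 over pairs and libraries (median 15.0). Tfap2b, an AP-2 factor of the crest, had 8, all within Pkhd1 at 1092 to 1300.5 kb. Lhx8, a LIM-homeobox gene of the oral region, had 9 at chr3:154540335-154577695, 213 to 247 kb upstream and around Tyw3. Dlx6 and Dlx3, of the same homeobox family as Dlx5, had 5 each, at medians of 863 and 128 kb. Twist1, a basic helix-loop-helix factor of crest mesenchyme, had 5 within Hdac9 at 472 to 700 kb. Of the crest inducers, Snai2, which drives delamination, had 10, among them 6 at 887 to 933 kb over Mcm4, Prkdc and Ube2v2, and Pax3 had 3.

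Of 78 patterning genes at baits outside the Hox clusters, 43 had shared interactions. En1, a homeobox gene of the midbrain and limb, had 11, all downstream at chr1:121164645-121190126 and 562 to 586 kb away, with a median score of 21.4. Gata2, a zinc finger factor, had 16 at 240 to 324 kb, Foxc2, a forkhead factor, had 14 at 260 to 415 kb, and Tbx2, a T-box repressor, had 15 within Bcas3 at 298 to 445 kb. Hoxb8 had 26, all downstream in 5 stretches from 253 to 585 kb, through Skap1, Cbx1 with Snx11 and Copz2 with Nfe2l1. Isl1, a LIM-homeobox gene, had 3 upstream at chr13:116706508-116716478 and 1 at 631 kb downstream. Irx1, an Iroquois factor, had 4 at chr13:72623818-72639548 over Irx2, at 662 to 673 kb, and Fgf8, a growth factor of facial outgrowth, had 7 at chr19:45210064-45243628 over Lbx1, at 499 to 529 kb. Irx1, Fgf8 and Twist1 were chosen for naming after their values were seen.

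Myod1, the myogenic factor, had 22 shared interactions, of which 17 lay within Sergef at 191 to 244 kb. Actb, the cytoplasmic actin, had 5 and Gapdh, a glycolytic enzyme, had 1 at 23.8 kb. Hoxa2, the Hox gene that sets second-arch identity and whose element the deletions are named for, had none among 175 distinct called pairs, and Ezh2 had none among 53.

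The longest shared cis interactions of named baits reached several megabases. Hapln1, a link protein of cartilage matrix, contacted 4 fragments within chr13:85550697-85643710 at 3898 to 3987 kb, with median scores of 29.8 to 32.9. Spaca6, a sperm protein, was joined to Zfp52 at 3703 kb, Csmd3 to a fragment at 3615 kb, the adhesion gene Ncam2 to a pair of fragments at 3357 and 3360 kb, Bbs4, a subunit of the ciliary BBSome, at 3341 kb and Slitrk3 at 3026 kb.

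Of the 105 shared trans interactions, 78 ended on scaffolds without a position on a chromosome of the assembly. For 27 of these, among them 5 each of Isg15 and Agrn, the assembly assigns the scaffold to the bait's own chromosome, 4, so that they are trans only by the scaffold's name. For the others cis and trans cannot be told apart. Among the 27 between assembled chromosomes, 23 joined the bait of Acbd7 and Rpp38 (chr2:3331981-3340597) to chr9:82500938-82631155. Rpp38 is a subunit of ribonuclease P and Acbd7 an acyl-CoA-binding protein. The median scores of these 23 ran from 44.8 to 807, the highest of any named bait. This bait had no shared cis interaction and a mean of 1.875 other cis calls per library, and the assembly's placement of either end was not tested. Of the 27, the other named ones joined Fam118a to chromosome 11 (173), Cdkn2b, a cell cycle inhibitor, to chromosome 1 (119), Lmod1 to chromosome 5 (55.2) and Lhfp to chromosome 9 (51.7). Glycam1, a mucin, had 15 to scaffolds, with median scores up to 348, and Hjurp, a centromere histone chaperone, had 4, up to 321.

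How strongly the shared interactions of a bait ranked varied between stages and genotypes. To compare libraries, each shared interaction was ranked by score among the same 15134 within each library, from 0 to 100 with 100 the highest score. Since the score chose the members, these ranks are a description. Between the 8 E11.5 wild-type and the 8 Ezh2cKO libraries, the ranks of 230 interactions (1.52% of all shared) did not overlap, 126 higher (0.833%) and 104 lower (0.687%) in Ezh2cKO.

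Hoxb8 held 15 of the 126. The median rank of its 26 interactions was 24.5 to 56.4 over the wild-type libraries (median 35.3) and 76.9 to 89.2 (median 83.8) over the Ezh2cKO libraries, without overlap. Irx1 went the other way in all 4 of its interactions, from 90.2 to 96.7 (median 95.3) in wild type to 25.7 to 66.0 (median 44.5). For Isl1 it was 80.3 to 88.2 (median 83.8) in wild type and 2.61 to 30.6 (median 25.9) in Ezh2cKO, and for Fgf8 72.8 to 83.2 (median 80.6) and 7.23 to 56.0 (median 31.3). En1 ranked 91.5 to 95.6 in wild type (median 93.3) and 70.7 to 84.4 (median 75.4) in Ezh2cKO. All 5 baits kept their contacts above the score threshold in every library, as the choice of members requires.

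Other baits overlapped between these genotypes. Sox9 had median ranks of 61.6 to 81.6 (median 72.1) in wild type and 45.8 to 80.2 (median 71.2) in Ezh2cKO, Dlx5 55.4 to 85.1 (median 75.4) and 59.2 to 84.5 (median 69.3), and the H2ac13 bait 89.999 to 95.5 (median 93.0) and 86.6 to 94.7 (median 90.7). Between the 2 E8.5 and the 8 E11.5 wild-type libraries, the ranks of 28.2% of the shared interactions did not overlap, 1953 higher (12.9%) and 2322 lower (15.3%) at E11.5. In the E8.5 progenitors Sox9 ranked at 22.2 and 27.9 and Lhx8 at 3.93 and 22.1, while Lhx8 ranked at 64.4 to 91.3 (median 83.2) in E11.5 wild type. The H2ac10 bait ranked at 94.5 and 94.6 at E8.5 and at 88.8 to 93.9 (median 90.7) at E11.5. Irx1 ranked at 31.8 and 71.3 at E8.5, and Isl1, at 86.1 and 89.2, lay near its E11.5 wild-type range. In the deletion libraries Irx1 (90.8 to 97.7 in 36kb, 93.7 and 93.9 in 42kb) and Isl1 (82.7 to 86.2, and 85.8 and 87.6) lay beside their wild-type ranges. Fgf8 ranked at 68.6 to 80.4 in 36kb and at 63.2 and 68.0 in 42kb, the latter below its wild-type range, and Hoxb8 at 45.1 to 58.0 and at 53.0 and 61.3.

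**Figure D4:**
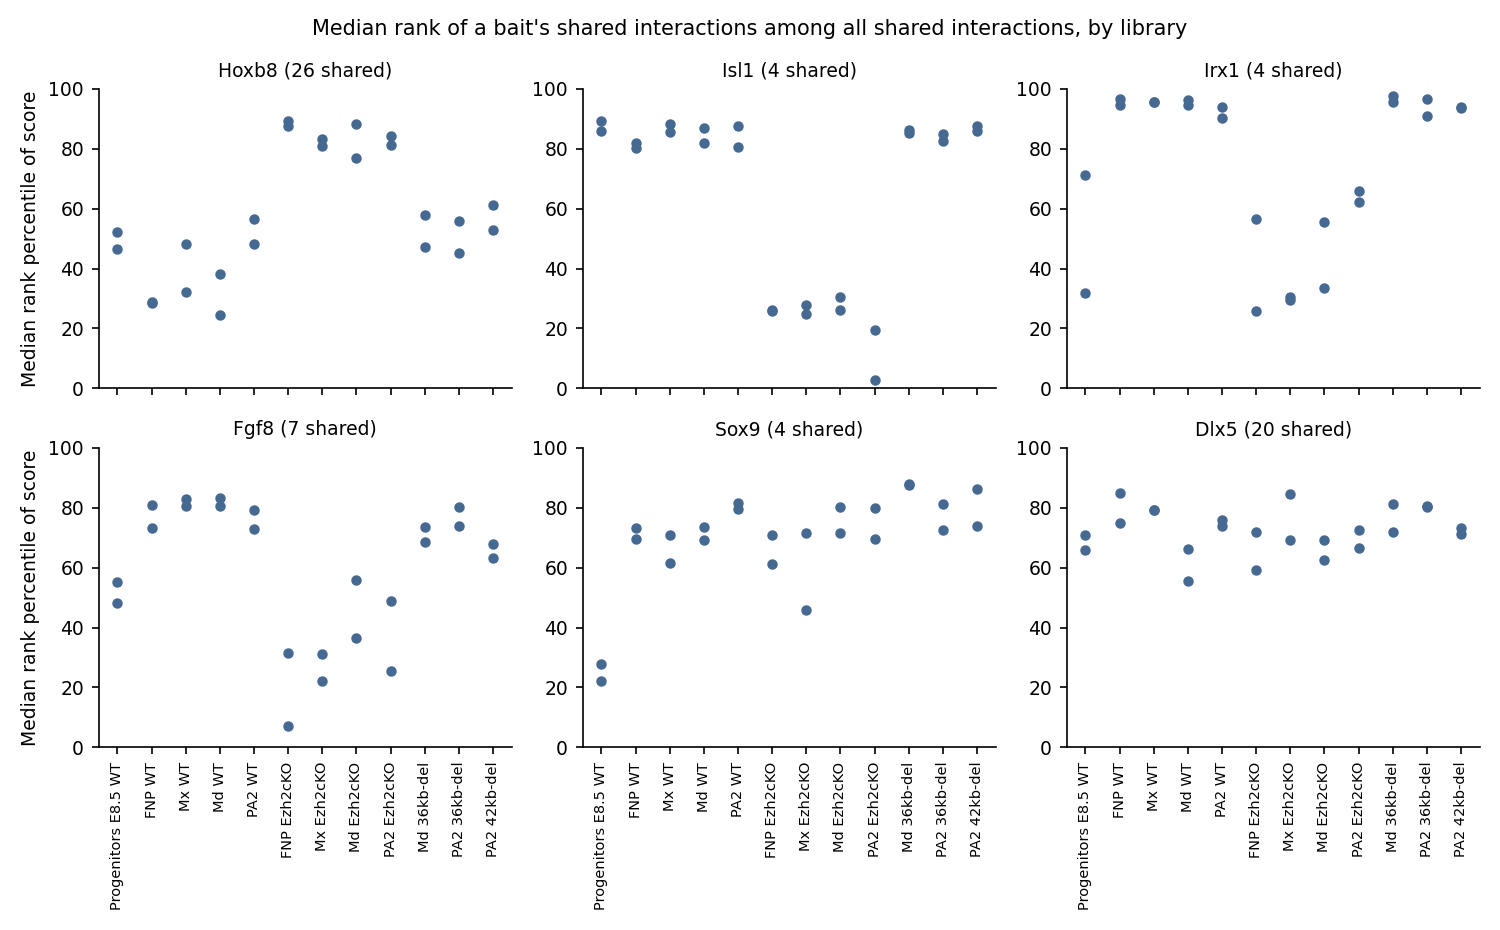
Median rank percentile (0 to 100) of the shared interactions of Hoxb8, Isl1, Irx1, Fgf8, Sox9 and Dlx5 among all 15134 shared interactions, with 1 point per library in each of the 12 groups. The Ezh2cKO points of Hoxb8 lie above and those of Isl1, Irx1 and Fgf8 below all E11.5 wild-type points, while those of Sox9 and Dlx5 overlap them.

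The other cis calls of each bait exclude the shared ones and may lie on fragments next to them. They were compared between groups with limma over all 10047 baits with a mean of at least 5 such calls. Of the 5116 baits with a shared interaction, 4306 passed that filter. These calls are not free of the choice. Each was missing from some library, and constant pairs were removed only from baits with a shared interaction, which can raise their relative changes. With all cis calls counted, 4603 such baits were tested. Of these, 1363 differed by stage, 480 in Ezh2cKO, 531 in the 36kb and 79 in the 42kb deletion. A bait with a mean under 5 outside the set of libraries (E8.5, E11.5 wild type, Ezh2cKO or deletion) where it was high passed only through them. The values of such a bait are given below without a test. Such baits made up 4 of the 974 higher and 13 of the 416 lower at E11.5, 9 of the 259 higher and 3 of the 196 lower in Ezh2cKO, 29 of the 245 higher and 5 of the 297 lower in the 36kb deletion, and 4 of the 32 higher in the 42kb deletion. These counts leave out rises at E11.5 that were also carried by the Ezh2cKO and deletion libraries of that stage. Tbx20 (mean 14.0 outside E11.5 wild type) and Tef (11.0) passed through groups that were not compared. Values below are numbers of calls per library, and log2 changes are of calls plus 0.5 relative to the library's total, which understates the change of low baits.

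Between E8.5 progenitors and the 8 E11.5 wild-type libraries, the other calls of 1390 of the 4306 baits differed (974 higher and 416 lower at E11.5, 32.3%), beside 30.0% of all baits tested and 28.3% of those without a shared interaction. Among baits with like numbers of calls the order was the reverse. With a mean of 5 to 10 other calls, 20.0% of baits with a shared interaction differed, beside 22.8% of those without. From 10 to 20 calls the shares were 33.7% and 35.3%, and at 20 or more 42.5% and 46.9%. Wnt11, a Wnt ligand, had 2 calls in each E8.5 library and 27 to 64 (median 45.5) at E11.5, a log2 change of 4.07. Shisal2a had 2 and 2 against 23 to 39 (median 28.5), a change of 3.50. Csmd3, a neural transmembrane protein, had 3 and 5 against 43 to 55 (median 50.5), a change of 3.40. The bait of Htr6, a serotonin receptor, and Nbl1, a BMP antagonist, had 1 and 5 against 29 to 34 (median 32). Fbn2, a microfibril protein, was at 0 in both E8.5 libraries and at 4 to 13 (median 8.5) at E11.5. None of these overlapped between stages. All had a mean under 5 at E8.5 and passed the filter only through E11.5 libraries, so no test is given for them.

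Dele1, a mitochondrial stress protein, had 21 and 23 calls at E8.5 and 2 to 5 (median 3.5) at E11.5. Slc44a5 had 13 and 13 against 0 to 6, the bait of Cdk4, a cell cycle kinase, and Marchf9 had 12 and 24 against 1 to 7, and Spag5, a spindle protein, had 18 and 24 against 3 to 6. These baits passed the filter only through the E8.5 libraries. Without E8.5 replicate 1 the count of changed baits was 789 and without replicate 2 it was 825. Stage and tissue cannot be told apart, since the progenitors were not divided by facial region.

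By list, 18 of 43 tested patterning baits with a shared interaction rose toward E11.5 and 2 fell (median log2 change 0.37), beside 20.3% and 9.72% of all baits and a median of 0.06 over all. Histone baits rose in 13 of 31 and fell in none (median 0.42), skeletal baits rose in 6 of 13 with 1 fall (0.72), and Hox baits fell in 6 of 26 with no rise (-0.25). Foxc2 had 4 and 13 calls at E8.5 and 23 to 40 (median 32) at E11.5, a change of 1.90 (limma adjusted p = 5.84e-06), and Tbx2 had 19 and 20 against 36 to 71 (median 57.5), a change of 1.30 (limma adjusted p = 1.03e-06). Of 8 Polycomb subunit baits tested, that of Cbx8 rose and that of Ring1 fell (median 0.05). Cbx8 had 3 and 1 calls at E8.5 and 8 to 13 at E11.5, a log2 change of 2.16, and passed the filter only through E11.5 libraries. Among the most connected baits, that of H2ac11 and H4c9 passed the test, with 50 and 60 calls at E8.5 and 68 to 92 at E11.5. Cpsf3 (-0.11), Pknox2 (-0.13) and H2ac13 (0.35) did not pass, and neither did Hoxb8 (-0.23), Dlx5 (0.29) and Sox9 (0.72, limma adjusted p = 0.0708).

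Between the 8 Ezh2cKO and the 8 wild-type libraries of the same 4 tissues, 455 of 4306 baits differed (259 higher and 196 lower in Ezh2cKO, 10.6%), beside 10.7% of all baits tested, so the share was near the background. Among baits with like numbers of calls it was lower than for baits without a shared interaction. With a mean of 5 to 10 other calls the shares were 6.50% and 8.85%. From 10 to 20 calls they were 11.0% and 12.7%, and at 20 or more 14.0% and 19.2%. Neurog2, a proneural factor, had 33 to 40 calls in wild type (median 35) and 4 to 11 (median 7) in Ezh2cKO, without overlap, a log2 change of -2.28 (SE 0.16, limma adjusted p = 1.97e-10). Tbx20, a T-box factor of heart and cranial motor neurons, had 20 to 33 (median 28) and 1 to 8 (median 5), a change of -2.59 (SE 0.19, adjusted p = 5.5e-10). Zic1, a zinc finger factor of the neural plate border, had 23 to 32 (median 25) and 4 to 10 (median 5.5), a change of -2.05 (SE 0.15, adjusted p = 5.91e-10). Each of these had 1 shared interaction.

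The bait of Ppp1r13l with Cd3eap, an RNA polymerase I subunit, had 64 to 216 calls in wild type (median 176) and 10 to 39 (median 28) in Ezh2cKO, a log2 change of -2.62 (SE 0.26, limma adjusted p = 1.08e-07). In the 36kb deletion this bait had 49 and 123 calls in the Md and 29 and 103 in the PA2, and in the 42kb deletion 103 and 80. The value of 29 lay within the Ezh2cKO range. Foxe1, a forkhead factor of the thyroid and palate, had 7 to 17 (median 9) and 0 to 5 (median 1), and passed the filter only through wild type. Isl1 had 15 to 25 (median 20.5) and 4 to 9 (median 7), a change of -1.56 (SE 0.15, limma adjusted p = 9.04e-08). Among the most connected baits, Cpsf3 with Itgb1bp1 had 147 to 185 calls in wild type (median 159.5) and 68 to 137 (median 103.5) in Ezh2cKO, without overlap, and fell by 0.74 on the log2 scale (SE 0.11, limma adjusted p = 4.62e-05).

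Higher numbers in Ezh2cKO were found at Hoxb9 and at its neighbour Hoxb8. Hoxb9 had 9 to 26 calls in wild type (median 16) and 37 to 59 (median 43) in Ezh2cKO, a log2 change of 1.53 (SE 0.17, limma adjusted p = 7.33e-07). Hoxb8, whose shared interactions also ranked higher, had 35 to 63 (median 43.5) and 67 to 79 (median 74), a change of 0.65 (SE 0.10, limma adjusted p = 8.21e-05). Neither bait overlapped between genotypes. Isg15, a ubiquitin-like protein, had 8 to 18 in wild type and 25 to 54 (median 37) in Ezh2cKO, a change of 1.57 (SE 0.15, limma adjusted p = 7.9e-08), and Asmt, the last enzyme of melatonin synthesis, had 4 to 10 (median 6.5) and 49 to 125 (median 74). The Asmt bait spans chrX:169982161-170676225, its 3 shared interactions ended on an unplaced scaffold, and its change was 3.37 (SE 0.17, limma adjusted p = 3.94e-13). Rasa2, a Ras GTPase activator, and Ndufv1, a complex I subunit, passed the filter only through Ezh2cKO, and their ranges overlapped. Rasa2 had 0 to 5 calls in wild type and 4 to 12 in Ezh2cKO, and Ndufv1 0 to 5 and 4 to 15.

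By list, 20 of 43 patterning baits with a shared interaction fell in Ezh2cKO and 1, Foxc1, rose (median log2 change -0.35), beside 4.97% and 5.73% of all baits tested and a median of 0.03. Of 26 Hox baits, 3 rose (Hoxb9, Hoxb8 and Hoxb7) and 6 fell (Hoxc13, Hoxc11, 1 of the Hoxc5 baits, Hoxd12, Hoxd3 and Hoxd4), with a median of -0.18. Histone baits had 1 rise and 1 fall among 31, and the facial crest list 1 and 1 among 14. Sox9 (-0.13, limma adjusted p = 0.723), Dlx5 (-0.29, adjusted p = 0.138), Pknox2 (-0.01, adjusted p = 0.978) and En1 (0.10) did not pass the test.

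Whether the Ezh2cKO difference varied between the FNP, Mx, Md and PA2 was tested with an interaction F test, and it did at 1 of 10047 baits (0.00995%), Pax3, with 580 other baits at an unadjusted p under 0.05. Pax3, a paired-box factor of the early crest, had 3 shared interactions at 216 to 293 kb. Its other calls numbered 42 and 54 in the wild-type and 46 and 38 in the Ezh2cKO libraries of the FNP, and 74 and 47 against 35 and 31 in the Mx. In the Md they numbered 70 and 71 against 11 and 12, and in the PA2 93 and 60 against 12 and 8. The genotypes overlapped in the FNP and not in the other 3 tissues. The log2 changes were -0.15, -0.92, -2.56 and -2.93 (limma adjusted p = 0.00133 for their difference). Over the 4 tissues together it had 42 to 93 calls in wild type (median 65) and 8 to 46 (median 21.5) in Ezh2cKO.

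**Figure D5:**
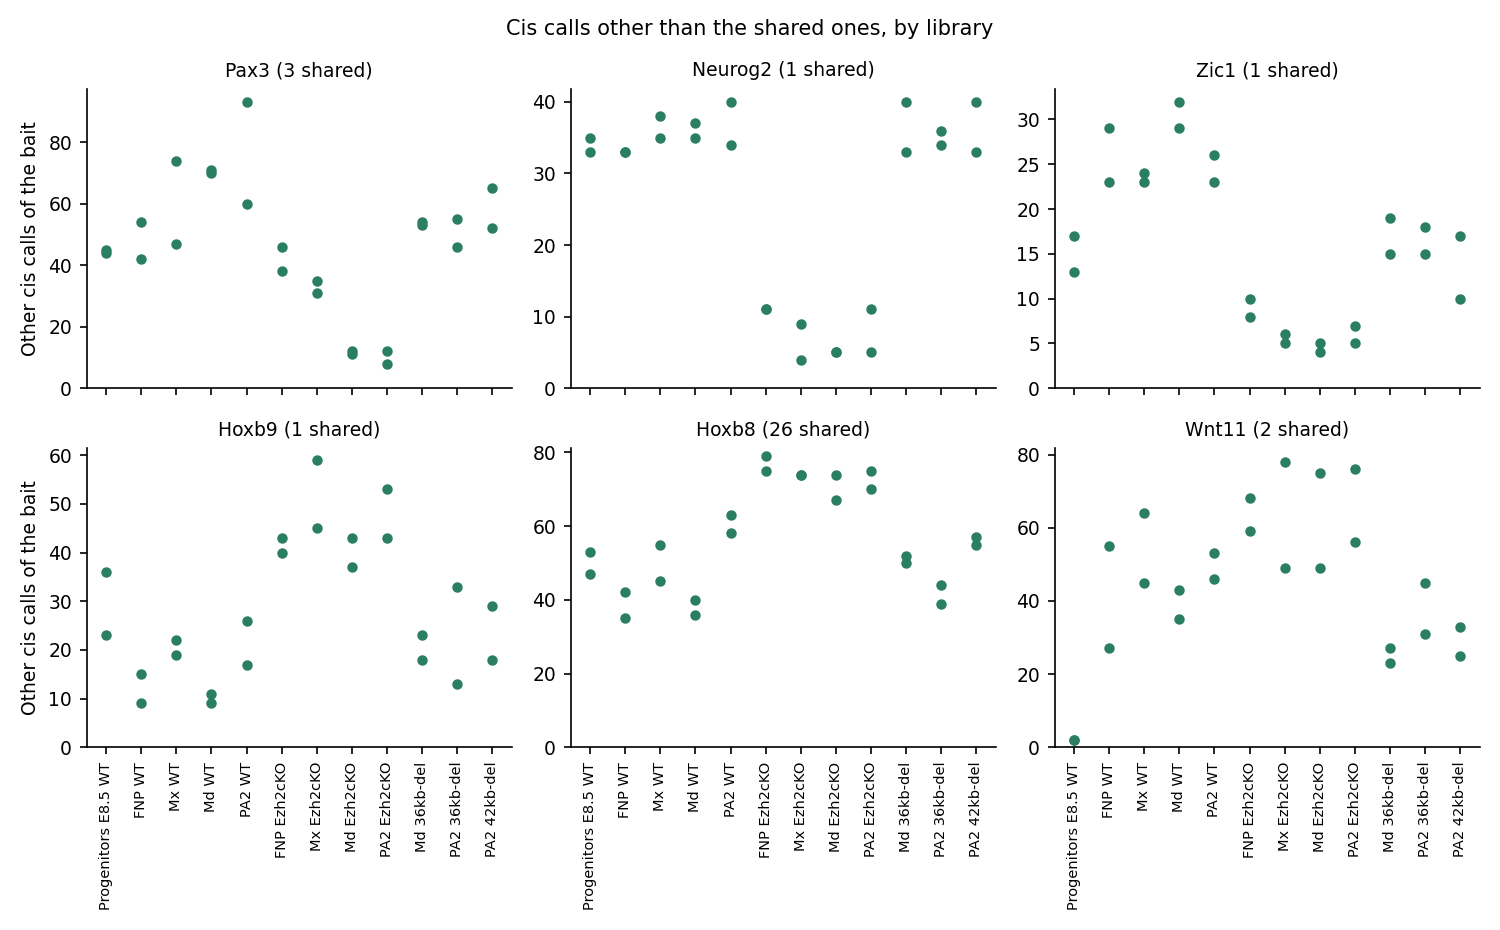
Number of cis calls other than the shared ones at the baits of Pax3, Neurog2, Zic1, Hoxb9, Hoxb8 and Wnt11, with 1 point per library in each of the 12 groups. Neurog2 and Zic1 are lower and Hoxb9 and Hoxb8 higher in every Ezh2cKO than in every E11.5 wild-type library, Pax3 is lowest in the Md and PA2 of Ezh2cKO, and Wnt11 has 2 calls in each E8.5 library.

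The 36kb deletion was compared with wild type over the Md and PA2 (4 libraries each), and the 42kb deletion with wild type over the PA2 (2 libraries each). Both comparisons share the 2 wild-type PA2 libraries. For the 36kb deletion 542 of the 4306 baits differed (245 higher and 297 lower, 12.6%), beside 11.4% of all baits tested. For the 42kb deletion 62 differed (32 higher and 30 lower, 1.44%), beside 1.57% of all baits, of which 0.607% were higher and 0.965% lower. The balance of higher to lower is not stable: for 36kb it was 291 to 285 with a pseudocount of 2, 171 to 167 with only the groups compared, 162 to 161 without Md wild-type replicate 2 and 244 to 398 without PA2 deletion replicate 2. For 42kb it was 9 to 5 and 10 to 7 without either wild-type library and 7 to 17 and 10 to 24 without either deletion library. Without 1 library at a time the 36kb count fell to 307 and 323 without Md wild-type replicates 1 and 2, to 292 and 311 without PA2 wild-type replicates 1 and 2, to 300 without the Md deletion replicate 1 and to 272 without the PA2 deletion replicate 1. The 42kb count fell to 14 and 17 without either wild-type library and to 24 and 34 without either deletion library.

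Pcdha3, a clustered protocadherin, and Sprr2k, a cornified envelope protein, passed the filter only through the deletion libraries, and are given without a test. Pcdha3 had 1, 1, 1 and 2 calls in the Md and PA2 wild-type libraries, 20, 15, 14 and 17 in the 36kb deletion and 20 and 17 in the 42kb deletion. Outside the deletions it averaged 1.94 calls. Sprr2k had 3, 3, 2 and 5 in wild type, 15, 17, 14 and 14 in 36kb and 16 and 18 in 42kb. Outside the deletions it averaged 4.11 calls. Both baits were higher in every deletion library than in every wild-type library of the Md and PA2.

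Syngr3, a synaptic vesicle protein, had 26, 23, 29 and 28 calls in wild type, 5, 4, 5 and 7 in 36kb and 5 and 5 in 42kb, a log2 change of -2.27 (limma adjusted p = 0.00233) for the latter. Mrgprb1, a receptor of sensory and immune cells, had 29, 19, 24 and 21 in wild type, 14, 6, 10 and 5 in 36kb and 4 and 2 in 42kb, a change of -2.65 (limma adjusted p = 0.00199) for 42kb. Tef, a clock-controlled leucine zipper factor, had 12, 15, 9 and 8 in wild type and 0, 2, 1 and 4 in 36kb, a change of -2.51 (SE 0.35, limma adjusted p = 9.75e-05), while 42kb had 12 and 9. The groups of these baits did not overlap where a change is given.

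Of the other baits that the rule named for 36kb, Gfus was higher, and Rtn4r and the bait of Aspscr1 and Notum were lower. Brd8dc, C1qtnf12, Eif2ak1 and 1700029P11Rik passed the filter only through the libraries where they were high. For 42kb Kcnip2 and Igtp were higher and Plekhn1 and Pex5 (20 and 24, then 4 and 5) lower. Nkapl, with 2 and 5 in wild type and 16 and 16 in the deletion, passed only through the deletions. In the 36kb comparison, Aspscr1 with Notum lost its call without either deletion replicate 1 and when all cis calls were counted. In the 42kb comparison Mrgprb1 and Syngr3 kept their calls under every alternative, and 8 of the 10 baits that the rule takes lost theirs in at least 1.

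By list, Hox baits with a shared interaction fell in 4 of 26 in the 36kb deletion with no rise (median log2 change -0.15), beside 6.17% of all baits lower and a median of 0.02, and had no call in either direction in the 42kb deletion. All 4 were neighbours in the Hoxc cluster (Hoxc11, Hoxc10, Hoxc8 and Hoxc6), and no bait of the other Hox clusters passed. Hoxc8 had 78, 86, 109 and 90 calls in wild type, 36, 45, 36 and 93 in 36kb and 60 and 78 in 42kb, a change of -0.69 for 36kb (limma adjusted p = 0.0246), with overlap in 1 library. Olfactory receptor baits rose in 17 of 98 with 1 fall in the 36kb deletion, beside 5.25% of all baits higher. In the 42kb deletion 2 of the 98 rose and 3 fell, beside 0.607% and 0.965% of all baits. Hoxa2 itself, which has no shared interaction, had 64 and 64 calls in the wild-type PA2 and 10 and 11 in the 42kb deletion, a log2 change of -2.43 (limma adjusted p = 0.00118). It had 23 and 17 in the PA2 of the 36kb deletion and 18 and 28 in that of Ezh2cKO. In the Md it had 25 and 23 in wild type and 32 and 26 in the 36kb deletion.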

How the data were processed

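Promoter capture Hi-C was measured in 24 libraries of mouse cranial neural crest cells. Each deposited list gives fragment pairs with a contact score, and the file names point to CHiCAGO as the caller. The build is GRCm38 (mm10), per the submitters' processing notes, and all 1697 fragment boundaries that could be tested matched it. Aligner, caller version, caller settings and read depth: not given in the sources used here. No list holds a score under 5.

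Pairs were made unordered and counted over libraries with Python 3.11.15 (pandas 2.3.3, numpy 2.4.6, scipy 1.17.1). A bait is a fragment listed first in any library, and it was named from RefSeq start sites inside it or within 1 kb. Partner fragments less than 20 kb apart were joined into 1 stretch. Other cis calls per bait were tested with limma 3.58.1 (R 4.3.3) on log2 of calls plus 0.5 over the library's total, for 10047 baits with a mean of at least 5, in 1 fit over all 12 groups with Benjamini-Hochberg adjustment at 0.05. On simulated counts over the 10047 baits the test recovered, of 2-fold and of 4-fold changes, 27.6% and 73.5% for the stage, 75.5% and 99.0% for Ezh2cKO, 39.8% and 95.1% for the 36kb and 20.4% and 73.5% for the 42kb deletion.

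Named genes are the 10 named baits with the most shared interactions, the 10 longest and 10 highest-scoring interactions, the 10 highest trans interactions, the 5 largest rises and falls per comparison, up to 5 baits per gene list, and Hoxa2, Ezh2, Sox9, Actb and Gapdh. The members and gene lists were chosen with earlier results of these data known. P-values measure the spread between libraries, and intervals cover counting error only. Naming by start site, and the interaction test, were settled after the files were seen. The E10.5 stage that the series design mentions was not analysed here. Some baits that the naming rule takes are not reported here.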

Additional observations from a re-analysis of the deposited data

Results flagged for a closer look

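The Ezh2cKO effect on the other cis calls of the Pax3 bait differed between the 4 tissues by the test of that difference (limma interaction F test, adjusted p = 0.00133), with log2 changes of -0.15 in the FNP, -0.92 in the Mx, -2.56 in the Md and -2.93 in the PA2. No other bait passed that test, and its 3 shared interactions were called in every library.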

How the results depend on the processing

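The number of shared interactions was 15134, 6319 with a score of at least 7 in every library and 2318 with at least 10. The median distance, 243 kb, was then 265 and 289 kb, and 249 kb for pairs called in at least 23 libraries, where the number of trans interactions was 158. On assembled chromosomes alone, an alternative chosen after seeing the data, trans interactions numbered 27. With a bait defined as listed first in every library, promoter-promoter interactions were 13.8%. Leaving out each library in turn gave 15195 to 16182 shared interactions, 16.5% to 17.7% promoter-promoter, 240 to 247 kb and 105 to 115 in trans, with the lowest share and the longest distance without E8.5 replicate 1.

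The count of baits with changed other calls ranged, leaving out each library, from 789 to 1434 for the stage, 338 to 497 for Ezh2cKO, 272 to 642 for the 36kb and 14 to 75 for the 42kb deletion. Fitting only the groups compared gave 338 for the 36kb and 36 for the 42kb deletion. Of 240 alternative values of these main results, 216 stayed within the spread or within 1.5 times the count and 24 did not. Direction was not part of that comparison, and for the deletions the balance of higher to lower turned in some runs, as given above. Of 40 named bait changes, 29 kept their call in every alternative run that tested them, 11 lost it in at least 1, and none changed direction. Baits with a mean under 10 other calls were not tested in the run that asked for at least 10. The 40 include baits that passed the filter only through the libraries where they were high.

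Replicate numbers do not pair the samples: over 66 pairs of groups, the correlation of same-numbered deviations was -0.089 to 0.166 (median 0.003), and 1 was over 0.1. With the replicate number as a block the counts were 1378, 455, 538 and 53. The depth in reads is unknown, and a call list gives no value for a pair under its threshold, so a missing call is not an absent contact.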
